A study of Mus musculus with 6 samples.

Results

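The transcripts of 10 genes of the proximal tubule's apical membrane were followed in primary cultures of mouse renal tubular epithelial cells (RTECs) with and without transforming growth factor-β1 (TGF-β1). They were chosen by name: the endocytic receptor genes Lrp2, Cubn and Amn, the endocytic adaptor gene Dab2, the peptidase genes Anpep, Dpp4, Mme, Enpep and Ggt1, and the microvillus gene Vil1. All 10 were found among the 46517 genes of the deposited files, and 8 of them had enough counts to be tested. 3 CTL cultures and 3 TGF-β1 cultures came from kidneys of wild-type FvB mice, whose age is 4 to 6 weeks in the sample labels and slightly younger, with male sex, in the study's methods. All 6 cultures were grown to 70% confluence in medium with serum and EGF and then kept in serum-free medium for 24 h, after which the TGF-β1 cultures received 50 ng/ml TGF-β1 for 24 h. The cells came from collagenase-digested whole kidneys passed through a mesh, with no sorting for a tubule segment, and neither the labels nor the methods say whether the cultures came from separate mice. The p-values below therefore measure the spread between these cultures, part of which may be technical.

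The proximal tubule takes filtered proteins back from the urine. Megalin, the product of Lrp2, and cubilin, the product of Cubn, bind albumin, vitamin carriers and many other ligands at the base of the microvilli. Cubilin has no membrane anchor of its own and depends on amnionless, the product of Amn, to reach the surface, while the adaptor Dab2 links the tail of megalin to clathrin. The brush border itself carries peptidases that digest peptides in the lumen, and villin bundles the actin core of its microvilli. These proteins are hallmarks of differentiated proximal tubule, and some of the peptidases are also found on podocytes, fibroblasts and blood cells.

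Promoter sequence is given for 3 of the 10 genes because their transcripts responded unequally: Dpp4 had the largest fall, Lrp2 a smaller one, and Cubn no detected change. All 3 lie on the minus strand of chromosome 2, and each run holds the 250 bases before the RefSeq start in GRCm38.p6, written 5′ to 3′. Capitals mark matches to the letters searched below.
Dpp4 (chr2:62412232-62412481): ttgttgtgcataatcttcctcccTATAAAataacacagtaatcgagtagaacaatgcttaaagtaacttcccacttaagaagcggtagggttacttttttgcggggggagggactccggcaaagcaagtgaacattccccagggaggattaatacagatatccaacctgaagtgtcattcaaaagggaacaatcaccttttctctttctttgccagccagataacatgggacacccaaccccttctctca
Lrp2 (chr2:69586030-69586279): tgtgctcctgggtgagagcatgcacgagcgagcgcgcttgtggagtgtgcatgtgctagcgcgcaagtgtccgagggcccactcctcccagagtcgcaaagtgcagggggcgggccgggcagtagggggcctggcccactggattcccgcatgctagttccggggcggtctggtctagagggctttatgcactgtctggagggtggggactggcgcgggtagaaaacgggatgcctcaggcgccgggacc
Cubn (chr2:13491877-13492126): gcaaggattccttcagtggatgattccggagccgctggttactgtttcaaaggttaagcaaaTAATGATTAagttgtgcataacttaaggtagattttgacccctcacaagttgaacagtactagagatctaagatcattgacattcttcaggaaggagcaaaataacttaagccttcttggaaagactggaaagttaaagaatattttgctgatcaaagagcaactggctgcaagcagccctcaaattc
The Lrp2 window held 18 CpG dinucleotides, against 4 in Dpp4 and 2 in Cubn, where the median of 32851 promoters was 6. Windows were searched on both strands for GTTAAT and TAATNATTA, letters found in binding sequences of homeodomain factors, for CAAAGTCCA, a sequence bound by HNF4, for GTCTAGAC, bound by SMAD proteins, and for the TATA box letters TATAAA. TAATNATTA was added after the sequences had been read. TAATNATTA stood 188 bases before the Cubn start and in no other window of the 10 genes, and 0.588% of all promoters held it. GTTAAT stood 65 bases before 1 of the Dab2 starts and is held by 6.43% of all promoters. TATAAA was found for Dpp4, 227 bases before the start. On the opposite strand it was found for Enpep and for 1 of the Ggt1 starts. The share of all promoters with these letters on either strand was 12.4%. CAAAGTCCA and GTCTAGAC, held by 0.384% and 0.167% of promoters, were in none of the 16 windows of the 10 genes. No match says only that these letters are not in these windows.

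Read counts on genes ranged from 28313080 to 34183497 per library, so that 3 counts, the floor used here, stand for 0.0878 to 0.106 CPM (counts scaled to a library of 1000000). Levels are given below as CPM after TMM scaling, a correction for the composition of each library. Both replicate 2 cultures stood apart from the others. The Y-linked genes Ddx3y, Eif2s3y, Kdm5d and Uty summed to 151 CPM in the CTL and 142 CPM in the TGF-β1 culture of that number, against at most 0.172 CPM in the other 4, so the cultures did not all come from the same mice, and these 4 go against the male sex in the study's methods. Replicate 2 also differed in cell type markers. Epcam had 63.3 and 53.5 CPM in its CTL and TGF-β1 culture, against 163 to 288 CPM in the other 4. Krt8 had 198 and 303 CPM against 551 to 918 CPM, while the collagen gene Col1a1 had 1465 and 1835 CPM against 506 to 809 CPM. Markers of a type did not all go the same way in replicate 2. Postn, a fibroblast marker, had 331 and 404 CPM there against 456 to 934 CPM. The epithelial marker Pax8, at 215 CPM, was highest in replicate 2 among the CTL cultures. Cultures with the same replicate number deviated together from their group means and were taken as pairs, a choice that rests on these same data. The main test was made without pairing, which the study's methods do not mention, and the value with the replicate number as a block is given beside it where the call changed. General epithelial markers were present in all libraries, with Krt8 at 556 ± 359.7 CPM (SD, n = 3) in CTL. Most proximal tubule markers were low. Of 17, 13 averaged under 1 CPM over the 6 cultures, among them the transport genes Slc34a1, Slc5a2 and Slc22a6, and also Kap.

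TGF-β1–treated RTECs had less RNA of the megalin gene Lrp2, its adaptor gene Dab2 and the peptidase gene Dpp4. Dpp4 fell to 8.46% of its CTL level, and Lrp2 and Dab2 fell to 52.4% and 54.95%. Of the 6 fits without 1 culture, the Dpp4 call held in 6, the Lrp2 call in 5 and the Dab2 call in 1. Enpep, Anpep, Ggt1 and Mme had estimates between 43.2% and 57.1% of CTL, and these passed the threshold once the replicate number was taken into account. The Cubn cultures overlapped between the groups, and Amn and Vil1 were close to the floor in both groups. In bulk cultures such as these, fewer cells of a type and less RNA per cell cannot be told apart.

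Of the 8 tested genes, 3 (Lrp2, Dab2 and Dpp4) were lower with TGF-β1 at an edgeR adjusted p-value under 0.05, and 5 did not pass. Among all 15862 genes tested, 6.69% were called lower and 5% higher by this rule. 0 of the 8 were higher, also at an unadjusted p-value under 0.05, and DESeq2 called 0 higher as well. With the replicate number as a block, 7 of the 8 were lower, against a background of 19.1% lower and 15.1% higher. The count without the block was 1 (Dpp4) when CTL replicate 1 was left out, and 2 without CTL replicate 3, TGF-β1 replicate 1 or TGF-β1 replicate 3. With the replicate 3 pair removed it was 1 (Dpp4). With the replicate 1 pair removed it was 0, where 3 had an unadjusted edgeR p under 0.05. Without both replicate 2 cultures 6 were lower, namely Lrp2 (-0.74, edgeR adjusted p = 0.00589), Dab2 (-0.88, 0.00141), Dpp4 (-3.48, 0.00121), Mme, Enpep and Ggt1. Leaving out both cultures of a number was chosen after seeing the data. Among all genes, the fits without 1 culture called 186 to 807 lower. Without the replicate 1, 2 or 3 pair, 1938, 4871 and 3666 genes had an unadjusted edgeR p under 0.05 in either direction. The main fit had 4529 such genes. The median log2 fold change of the 8 was -0.90, and that of all genes tested was -0.0028. The 2 genes with too few counts are left out of this median, so it does not describe all 10. For 4 of the 10 genes (Lrp2, Dab2, Dpp4 and Enpep) each TGF-β1 culture lay below each CTL culture, as it did for 18% of all tested genes. For 3 cultures against 3, the smallest two-sided exact permutation p is 0.1.

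**Figure D1:**
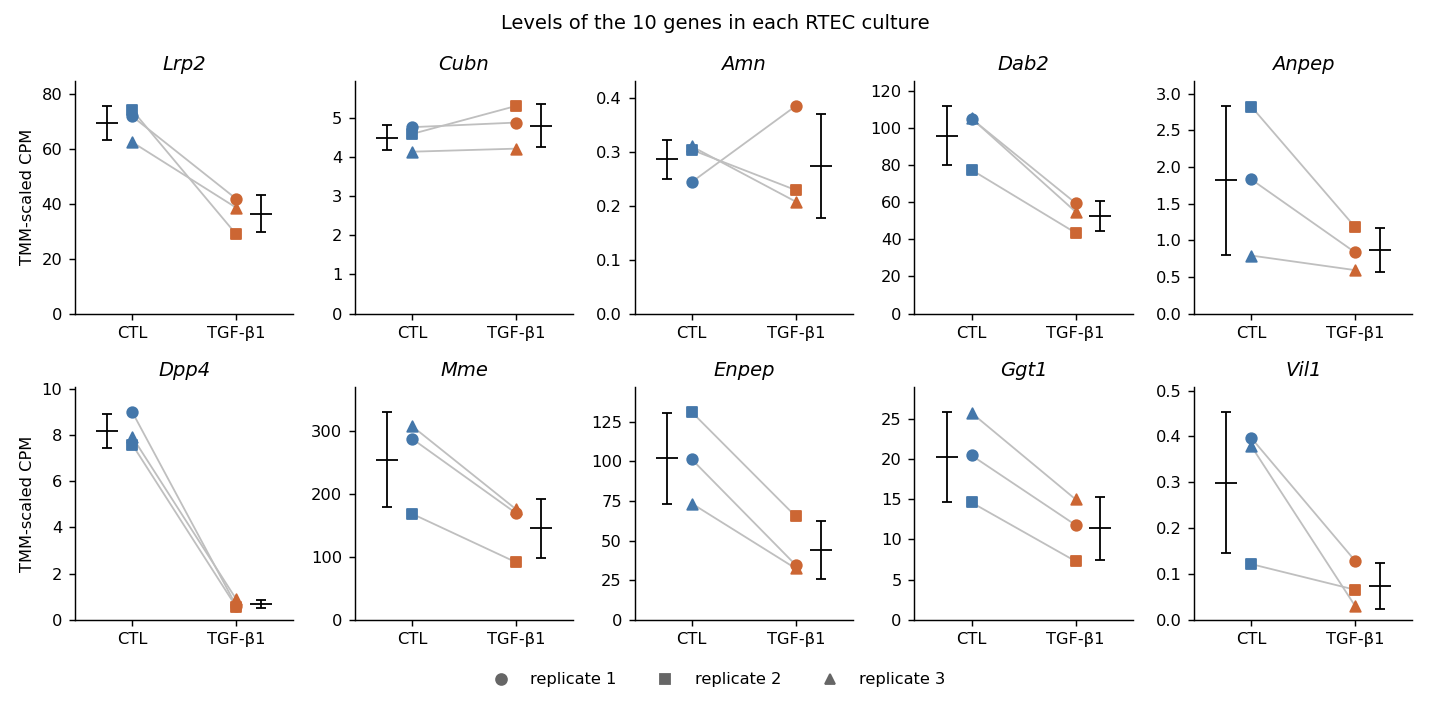
Levels of the 10 genes in each culture, in TMM-scaled CPM on axes that start at 0, with CTL in blue and TGF-β1 in orange. Marker shapes give the replicate number, lines join same-numbered cultures, and black bars show mean ± SD (n = 3). Dpp4 lay at 7.59 to 8.998 CPM in CTL and at 0.556 to 0.890 CPM after TGF-β1, while the Cubn cultures overlapped.

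Among the endocytic receptors, Lrp2 (ENSMUSG00000027070.13, GRCm38 chromosome 2, 69424340 to 69586065, minus strand) encodes megalin, the large receptor of the LDL receptor family. Its level was 72.0, 74.2 and 62.5 CPM in CTL replicates 1, 2 and 3 and 41.9, 28.9 and 38.6 CPM in the TGF-β1 replicates. Every TGF-β1 culture was below every CTL culture, and the widest gap within a pair was in replicate 2. The log2 fold change was -0.93 (standard error 0.15, edgeR adjusted p = 0.0165). The adjusted p rose to 0.0824 in edgeR without CTL replicate 1, the only 1 of 6 such fits in which the call was lost.

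Cubn (ENSMUSG00000026726.10, chromosome 2, 13276338 to 13491813, minus strand) encodes cubilin, the peripheral receptor for intrinsic factor–vitamin B12, albumin and apolipoprotein A-I. Its level was 4.76, 4.59 and 4.13 CPM in CTL and 4.88, 5.30 and 4.21 CPM after TGF-β1. The groups overlapped, and each TGF-β1 culture was slightly above its same-numbered CTL culture. The log2 fold change was 0.093 (standard error 0.13, edgeR adjusted p = 0.698, and 0.565 under the block). Within libraries, Cubn to Lrp2 log2 ratios per kb of exon were -3.79 ± 0.06 (SD, n = 3) for CTL and -2.75 ± 0.41 for the TGF-β1 cultures, which did not overlap (two-sided exact permutation test, p = 0.1). An unstranded count could take in reads from Gm13270, an opposite-strand transcript that overlaps 2.46% of the Cubn exon sequence.

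Amn (ENSMUSG00000021278.6, chromosome 12, 111271095 to 111276426, plus strand) encodes amnionless, which carries cubilin to the membrane. It had 8, 10 and 9 counts in the CTL libraries and 12, 7 and 7 in the TGF-β1 libraries, too few for the test. The groups overlapped, with the highest and the lowest CPM both in TGF-β1 cultures. Pooled over libraries, 26 counts against 27 gave a TGF-β1 to CTL ratio of 0.956, with a 95% exact interval of 0.536 to 1.70 that covers counting error only. The Lrp2 ratio of 0.524 lies just below this interval. Because spread between cultures is left out of it, the interval cannot decide whether Amn fell as much as Lrp2. With every gene of 1 count or more kept, edgeR put Amn at -0.058 on the log2 scale, give or take a standard error of 0.41. Cubn to Amn log2 ratios per kb of exon were 0.96 ± 0.28 (SD, n = 3) for CTL and 1.16 ± 0.46 for TGF-β1 (two-sided exact permutation test, p = 0.7).

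Dab2 (ENSMUSG00000022150.15, chromosome 15, 6299788 to 6440712, plus strand) encodes the clathrin adaptor that binds the megalin tail. Its level was 105, 77.4 and 105 CPM in CTL and 59.5, 43.5 and 54.9 CPM after TGF-β1. All TGF-β1 cultures were below all CTL cultures, and replicate 2 was the lowest of its group in both. The log2 fold change was -0.86 (standard error 0.16, edgeR adjusted p = 0.0276), and the same-numbered pairs differed by -0.82, -0.83 and -0.94. Without the block the call held only when CTL replicate 2 was the culture dropped (edgeR adjusted p = 0.0205). It was lost without CTL replicate 1 (0.115), CTL replicate 3 (0.069), TGF-β1 replicate 1 (0.0739), replicate 2 (0.0545) or replicate 3 (0.0714). The call was also lost when every gene with 1 count or more was tested (edgeR adjusted p = 0.0555). The block brought the standard error to 0.047 and the edgeR adjusted p to 1.34e-05. A pseudogene on the opposite strand, Gm18888, overlaps 2.87% of the Dab2 exon sequence. Lrp2 to Dab2 log2 ratios per kb of exon were -1.64 ± 0.35 (SD, n = 3) for CTL and -1.72 ± 0.05 for TGF-β1 (two-sided exact permutation test, p = 0.9).

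Of the 5 peptidase genes, Dpp4 (ENSMUSG00000035000.8, chromosome 2, 62330073 to 62412231, minus strand) changed most. It encodes dipeptidyl peptidase 4, which removes N-terminal dipeptides from incretins and chemokines. Its counts were 295, 250 and 230 in CTL and 19, 17 and 30 after TGF-β1, or 8.998, 7.59 and 7.92 CPM against 0.609, 0.556 and 0.890 CPM. The lowest CTL culture was far above the highest TGF-β1 culture. The log2 fold change was -3.56 (standard error 0.20, edgeR adjusted p = 0.00121), 11.8-fold lower after TGF-β1. It was the 29th lowest of the 15862 log2 fold changes. Dropping each culture in turn left the Dpp4 call in place 6 times of 6, with a largest edgeR adjusted p of 0.0201. Without both replicate 1 cultures and without the block, a fit added after seeing the data in which 0 genes passed, its log2 fold change was -3.41 (edgeR adjusted p = 0.197). Gm13561, an antisense transcript, overlaps 3.67% of the Dpp4 exon sequence.

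Enpep (ENSMUSG00000028024.13, chromosome 3, 129269175 to 129332720, minus strand) encodes aminopeptidase A, which cleaves angiotensin II to angiotensin III. It had 101, 131 and 73.4 CPM in CTL and 34.6, 65.3 and 32.4 CPM after TGF-β1. The groups did not overlap, though the highest TGF-β1 culture, replicate 2, came close to the lowest CTL culture. Its log2 fold change of -1.21 (standard error 0.34, edgeR adjusted p = 0.0733) did not pass. The block gave -1.24 (standard error 0.10, edgeR adjusted p = 2.99e-04). Without TGF-β1 replicate 2 and with no block, Enpep passed as well (-1.61, edgeR adjusted p = 0.0311).

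Mme (ENSMUSG00000027820.11, chromosome 3, 63241537 to 63386030, plus strand) encodes neprilysin, which degrades natriuretic and other peptides. Its level was 288, 168 and 308 CPM in CTL and 169, 91.4 and 176 CPM after TGF-β1. The groups overlapped because CTL replicate 2 lay just below TGF-β1 replicates 1 and 3, yet each pair was lower by a similar amount, with log2 ratios of -0.76, -0.88 and -0.81. For Mme the log2 fold change was -0.81 (standard error 0.33, edgeR adjusted p = 0.17) without the block and -0.82 (standard error 0.044, edgeR adjusted p = 1.31e-05) with it.

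Ggt1 (ENSMUSG00000006345.9, chromosome 10, 75561604 to 75586200, plus strand) encodes γ-glutamyltransferase, which starts the breakdown of luminal glutathione. It had 20.5, 14.6 and 25.8 CPM in CTL and 11.8, 7.30 and 15.0 CPM after TGF-β1. Only TGF-β1 replicate 3 reached into the CTL range, and replicate 2 was again the lowest of both groups. For Ggt1 the log2 fold change was -0.83 (standard error 0.31, edgeR adjusted p = 0.147) without the block and -0.85 (standard error 0.076, edgeR adjusted p = 1.37e-04) with it.

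Anpep (ENSMUSG00000039062.14, chromosome 7, 79821803 to 79861059, minus strand) encodes aminopeptidase N, a defining brush border enzyme. Its level was low, at 1.83, 2.82 and 0.792 CPM in CTL and 0.834, 1.18 and 0.593 CPM after TGF-β1. The groups overlapped, and replicate 2 was the highest of both, as for Enpep and unlike Mme, Ggt1 and Dab2. For Anpep the log2 fold change was -1.07 (standard error 0.50, edgeR adjusted p = 0.217) without the block and -1.03 (standard error 0.21, edgeR adjusted p = 0.00776) with it. The pair of replicate 3 cultures differed least, by a log2 ratio of -0.36, against -1.05 and -1.19 in the other pairs.

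Vil1 (ENSMUSG00000026175.11, chromosome 1, 74409376 to 74435559, plus strand) encodes villin. It had 13, 4 and 11 counts in CTL and 4, 2 and 1 after TGF-β1, and was not tested. CTL replicate 2 lay within the TGF-β1 range in CPM. The pooled counts of 28 and 7 gave a TGF-β1 to CTL ratio of 0.248, with a 95% exact interval of 0.0915 to 0.581 for counting error only. In the edgeR fit of all 27562 genes with 1 count or more, its log2 fold change was -1.95 (adjusted p = 0.127). An opposite-strand gene, Usp37, overlaps 1.38% of the Vil1 exon sequence.

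**Figure D2:**
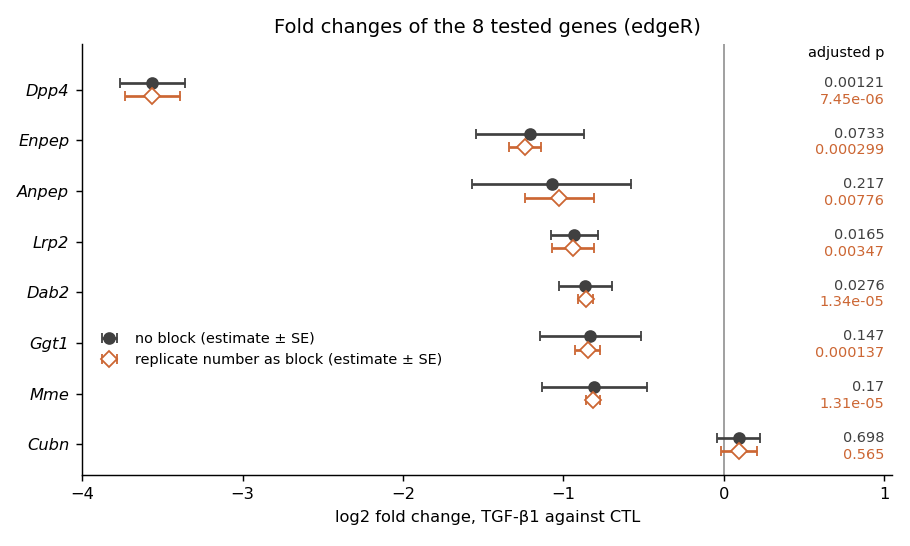
Log2 fold changes of the 8 tested genes, TGF-β1 against CTL, with standard errors from edgeR without a block (filled circles) and with the replicate number as a block (open diamonds). Numbers at the right are adjusted p-values over all genes tested, in the colour of the fit. Estimates of the fits nearly coincide, with Dpp4 at -3.56 in both and Cubn near 0, while error bars of Mme, Enpep, Ggt1 and Dab2 are shorter with the block.

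Per kb of exon, the order of levels in CTL was Mme, Enpep, Dab2, Ggt1, Lrp2, Dpp4, Anpep, Cubn, Amn and Vil1. Mme and Enpep had 22.1 ± 6.5 and 21.7 ± 6.1 CPM per kb (SD, n = 3 each), and their ranges overlapped. Dab2 followed at 13.05 ± 2.17 CPM per kb. Ggt1 at 5.94 ± 1.64 and Lrp2 at 4.17 ± 0.37 CPM per kb also overlapped, as did Anpep and Cubn at 0.439 ± 0.246 and 0.301 ± 0.022. Cubn RNA was thus lower than Lrp2 RNA in every library, also per length. After TGF-β1, Dpp4 moved from the 6th to the 9th place, at 0.108 ± 0.028 CPM per kb, and its range then overlapped that of Amn. Summed over the 10 genes, the level was 481 to 603 CPM in CTL and 244 to 324 CPM after TGF-β1.

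**Figure D3:**
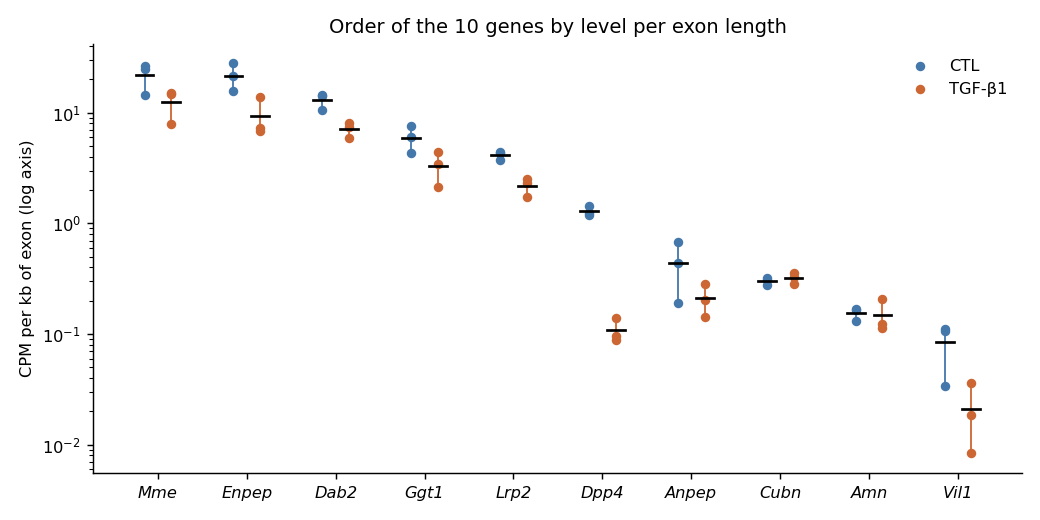
CPM per kb of exon (log axis) of the 10 genes in the 3 CTL (blue) and 3 TGF-β1 (orange) cultures, ordered by the CTL mean. Points are cultures, vertical lines their range and black bars the means. Levels ran from 22.1 CPM per kb for Mme to 0.0842 for Vil1 in CTL.

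Over the 6 cultures, the non-member genes with a pattern most like Lrp2 by Pearson correlation of log2 CPM were Crebl2, Anln and Retsat (r = 0.998, 0.997 and 0.997, of 10906 genes with at least 5 CPM). Those most like Cubn were Ccdc163, Bcat1 and Elof1 (r = 0.994, 0.976 and 0.976). The 6 points share the group difference and the replicate numbers, so these values are descriptive. Among the members, Mme and Ggt1 followed each other most closely (r = 0.977), while Mme and Anpep did not (r = -0.016).

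The wider brush border was sparse in these cultures. Of 16 other genes listed as brush border genes, mostly of enzymes, 11 averaged under 1 CPM. Car4 had 0 counts in all libraries, and 6 genes were tested. The list was set by name, and where the products lie in the cell was not tested. Of these 6, 3 fell and 0 rose in edgeR (1 at an unadjusted p under 0.05, and 0 in DESeq2), with a median log2 fold change of -0.88. Aoc1, a diamine oxidase, fell from 36.5 ± 9.5 to 13.2 ± 3.4 CPM (SD, n = 3 each; log2 fold change -1.46, edgeR adjusted p = 0.0252), and Pter fell from 15.8 ± 0.5 to 11.6 ± 1.4 CPM (-0.45, edgeR adjusted p = 0.0428). Aoc1 kept its call in 2 and Pter in 1 of the 6 fits without 1 culture, with largest edgeR adjusted p-values of 0.0994 and 0.144. Alpl, an alkaline phosphatase among the genes under 1 CPM, had 1.18 ± 0.69 CPM in CTL and 0.476 ± 0.148 CPM after TGF-β1. Its log2 fold change was -1.32 (edgeR adjusted p = 0.13, and 0.00631 with the replicate block). Nt5e, per kb of exon the most abundant gene of the list that did not pass, had 0.14 (edgeR adjusted p = 0.701).

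Genes of the microvillus core and its scaffold were mixed. Of 24 genes, 18 were tested, 1 rose and 0 fell in edgeR (5 were lower at an unadjusted p under 0.05), and the median log2 fold change was -0.18. With the replicate block 4 rose and 8 fell, and DESeq2 called 2 higher and 4 lower. Among all genes tested, the block called 15.1% higher and 19.1% lower. The gene that rose was Msn, encoding moesin, which links actin to the membrane, from 1825 ± 33 to 2446 ± 70 CPM (SD, n = 3 each; log2 fold change 0.42, edgeR adjusted p = 0.0128). It kept its call in 4 of the 6 fits without 1 culture, with a largest edgeR adjusted p of 0.0867. Pls1, encoding the plastin of microvilli, had a log2 fold change of -1.30 (edgeR adjusted p = 0.111, and 9.59e-05 with the block), and Pls3, its relative of other cells, had 0.12 (edgeR adjusted p = 0.187, and 0.0786 with the block). Pdzk1, Cdhr2, Cdhr5, Anks4b, Tmigd1 and Slc9a3 were too low to test. In the villin and gelsolin family, Scin (scinderin) fell from 272 ± 72 to 107 ± 37 CPM (-1.34, edgeR adjusted p = 0.0444), and Capg rose from 151 ± 19 to 218 ± 7 CPM (0.53, edgeR adjusted p = 0.0224). The Scin call was lost whichever culture was dropped, at edgeR adjusted p-values up to 0.149, and the block gave 4.49e-06. Capg kept its call in 2 of these 6 fits. Gsn (gelsolin) and Vill had log2 fold changes of -0.71 and -1.07 (edgeR adjusted p = 0.187 and 0.0569, and 3.96e-05 and 0.00113 with the block).

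Relatives of the member peptidases were mostly near 0. Of 21, 14 were tested, 2 rose and 0 fell in edgeR (1 lower at an unadjusted p under 0.05, and 0 in DESeq2), and the median log2 fold change was 0.040. The block called 3 lower and 5 higher, against 19.1% lower and 15.1% higher among all genes tested. Dpp6, a relative of Dpp4 without peptidase activity that modulates potassium channels, rose from 10.2 ± 3.1 to 31.8 ± 4.4 CPM (1.64, edgeR adjusted p = 0.0129). Ggt5, which acts on leukotrienes, rose from 1.48 ± 0.49 to 4.17 ± 1.26 CPM (1.48, edgeR adjusted p = 0.0354). Dpp6 stayed past the threshold in 4 and Ggt5 in 1 of the 6 fits without 1 culture. Ece1, a relative of Mme, had a log2 fold change of 0.0010 (edgeR adjusted p = 0.997), and Ggt7 had -0.49 (edgeR adjusted p = 0.382, and 0.0229 with the block).

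In the LDL receptor family without Lrp2, 11 of 12 genes were tested, 1 rose and 1 fell, and the median log2 fold change was -0.098. Vldlr, the receptor of very low density lipoprotein, fell from 82.0 ± 9.3 to 43.5 ± 7.1 CPM (-0.91, edgeR adjusted p = 0.0157), and Lrp12 rose from 47.9 ± 1.1 to 65.6 ± 5.2 CPM (0.45, edgeR adjusted p = 0.0128). Sorl1, a sorting receptor, had a log2 fold change of -1.12 (edgeR adjusted p = 0.108, and 0.00545 with the block), and Lrp10, per kb of exon the most abundant that did not pass, had 0.025 (edgeR adjusted p = 0.778). With the block 2 of the 11 rose and 3 fell, where 15.1% of all genes tested rose and 19.1% fell. Vldlr and Lrp12 each kept their call in 4 of the 6 fits without 1 culture, with largest edgeR adjusted p-values of 0.073 and 0.075.

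The general endocytic apparatus had small estimates. All 24 listed genes were tested, 1 rose and 2 fell, and the median log2 fold change was 0.098. Among those that fell was Myo6, the motor that moves endocytic vesicles away from the microvilli, from 389 ± 21 to 271 ± 20 CPM (SD, n = 3 each; log2 fold change -0.52, edgeR adjusted p = 0.012). Ap2a2, a subunit of the AP-2 clathrin adaptor, rose by 0.19 on the log2 scale (edgeR adjusted p = 0.0425, and 0.00908 under the block). Without 1 culture Myo6 kept its call in 4 of 6 fits and Ap2a2 in 0, with edgeR adjusted p-values of at most 0.176. Rab7, a late endosomal GTPase, and Ctns, the lysosomal cystine transporter, had 0.15 and 0.38 (edgeR adjusted p = 0.0775 and 0.0892, and 0.025 and 0.00937 with the block). With the block 6 rose and 5 fell, beside 15.1% higher and 19.1% lower among all genes tested.

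**Figure D4:**
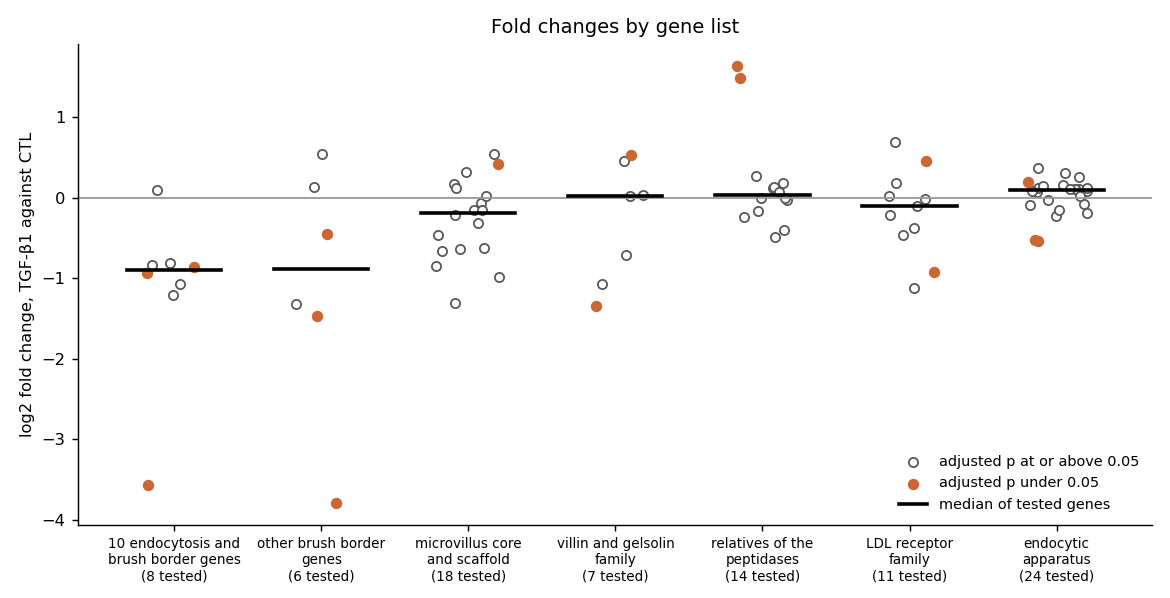
Log2 fold changes of the tested genes of 7 lists from edgeR without a block. Each point is a gene, filled where the adjusted p-value was under 0.05, and black bars are medians of the tested genes. Medians were -0.90 for the 8 tested endocytosis and brush border genes and -0.88 for 6 other genes listed as brush border genes. They lay between -0.18 and 0.10 in the other lists shown. Among cell type markers, not shown, medians were -1.33 for proximal tubule and -0.96 for thick limb and distal tubule. The remaining marker lists had medians from -0.48 to 0.35.

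Markers of cell types were read beside these falls, and their part in the result was not tested. Summed over 17 proximal tubule markers other than the 10 genes, the level was 64.7 to 85.3 CPM in CTL and 34.7 to 43.9 CPM after TGF-β1, lowest in replicate 2 of both groups. Most of this sum was Slc4a4, the basolateral bicarbonate transporter, with 37.2 to 60.2 CPM in CTL and 20.6 to 34.01 CPM after TGF-β1 (-0.85, edgeR adjusted p = 0.0755, and 1.73e-05 with the block). All 6 tested markers of this list had estimates below 0, of which Aqp1, the proximal water channel, passed (-2.91, edgeR adjusted p = 0.00919) and 5 passed with the block. Hnf4a, a transcription factor gene, was low, at 0.917 ± 0.283 CPM in CTL and 0.318 ± 0.136 CPM after TGF-β1. Its log2 fold change was -1.53 (edgeR adjusted p = 0.0591, and 0.00448 with the block). Among 7 general epithelial markers, Cdh16 and Pax8 fell (-1.50 and -0.77, edgeR adjusted p = 0.00922 and 0.00436) and Krt8 had a log2 fold change of 0.059 (edgeR adjusted p = 0.964). With the block 5 of the 7 were lower and 0 higher, the others being Epcam, Cdh1 and Pax2 (-0.15, -0.18 and -0.24, edgeR adjusted p = 0.0376, 0.0194 and 0.0125). Their summed level ran from 1060 to 2637 CPM in CTL and from 916 to 2185 CPM after TGF-β1, with replicate 2 lowest in both groups. Fibroblast markers summed to 1519 to 2901 CPM in CTL and 1796 to 3765 CPM after TGF-β1, with replicate 2 highest in both groups. Most of this sum was Col1a1, Col1a2, Col3a1 and Postn. Postn, Thy1 and Pdgfra were instead lowest in replicate 2 of both groups. Of 8 fibroblast markers tested, 0 passed (0 at an unadjusted edgeR p under 0.05 and 0 in DESeq2). With the block 3 of them rose, Col1a1, Col1a2 and Postn (0.37, 0.73 and 0.47, edgeR adjusted p = 0.00628, 0.0145 and 0.00171). The 2 that fell were Pdgfrb and Dcn (-0.86 and -1.21, edgeR adjusted p = 0.000431 and 0.0256). Over all genes tested, the block called 15.1% higher and 19.1% lower. Podocyte markers summed to 455 to 704 and 365 to 425 CPM, mostly Synpo, with the slit diaphragm gene Nphs1 near the floor, and 0 of 4 tested passed in edgeR (2 lower at an unadjusted p under 0.05, 2 in DESeq2 and 4 with the block). Endothelial markers summed to 36.7 to 52.2 and 22.9 to 35.5 CPM, mostly Flt1, with Pecam1 and Cdh5 under 1 CPM, and 0 of 3 tested passed in edgeR (1 lower at an unadjusted p under 0.05, in DESeq2 and with the block). Leukocyte markers summed to 9.13 to 20.5 and 6.44 to 17.3 CPM, and among 5 tested Csf1r was lower (-1.32, edgeR adjusted p = 0.0238), a call kept in 3 of the 6 fits without 1 culture (largest adjusted p 0.108). Thick ascending limb and distal tubule markers summed to 6.38 to 11.96 and 4.35 to 6.99 CPM, with 0 of 5 tested past the threshold in edgeR (2 lower at an unadjusted p under 0.05, 0 in DESeq2 and 3 with the block). Collecting duct markers summed to 10.3 to 23.2 and 30.2 to 57.8 CPM, almost all from Hsd11b2, which was higher (1.65, edgeR adjusted p = 0.0415), a call kept in 2 of the 6 fits without 1 culture (largest adjusted p 0.158). The only other tested gene of this list, Scnn1g, was low, at 0.730 CPM in CTL and 0.211 CPM after TGF-β1 on average. Its log2 fold change was -1.77 (edgeR adjusted p = 0.0845, and 0.00845 with the block). Aqp2 and Avpr2 were below the floor on average.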

How the data were processed

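Per the labels and the study's methods, poly(A) mRNA from 100 ng of RNA of each culture was sequenced as single 50-bp reads, trimmed with Trim Galore, aligned to GRCm38 with STAR 2.4.1d and counted per gene with HTSeq 0.6.1. The authors deposited these read counts without normalization. Reads aligning to more than 1 place (18.7% to 19.4% of the reads listed) or to more than 1 gene (1.88% to 1.97%) are in separate rows and stayed out, as did reads on no gene (4.16% to 4.93%). The strand setting and annotation release are not given in the sources used here.

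Positions, symbols and exon lengths came from GENCODE M21 (GRCm38), which matched 46005 of 46517 identifiers without their version. Counts were fitted in R 4.3.3 with edgeR 4.0.16 (filterByExpr, TMM, robust glmQLFit, then the two-sided glmQLFTest), and p-values were adjusted by Benjamini and Hochberg's method over all 15862 genes tested, with calls made under 0.05. Log2 CPM for correlations and pair ratios used a pseudocount of 0.1 CPM. Alternatives used DESeq2 1.42.0, limma 3.58.1 (voom), other scalings, filters and a threshold of 0.01, the replicate block, and fits leaving out cultures. Scripts were tested on simulated data. Figures used matplotlib 3.10.9, and promoters are RefSeq's (GRCm38.p6), which held 16 windows for the 10 genes.

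The replicate numbers in the labels were taken to pair the cultures, since same-numbered cultures correlated at 0.36, 0.69 and 0.59 in their deviations over 15862 genes, and different numbers at -0.63 to 0.23. Deviations are taken from the group mean, so these correlations depend on each other. For replicate 1 the difference was small: its CTL culture correlated at 0.36 with TGF-β1 replicate 1 and 0.23 with TGF-β1 replicate 3. No pair of libraries matched within sampling noise (chi-square per degree of freedom at least 9.02). Named genes are the 10 members and, from each further list, up to 4 past the threshold with the largest change, then the most abundant per kb and the most changed of those that did not pass. Cell type markers were named where they passed or define a type. Some list genes that this rule takes are not reported here. Members and lists were chosen with earlier results of these data known.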

Additional observations from a re-analysis of the deposited data

How the results depend on the processing

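The median log2 fold change of the 8 tested genes was -0.90, and stayed between -0.97 and -0.89 with DESeq2, limma-voom, other scalings, other filters and the replicate block. Fits that left out 1 culture gave -1.04 to -0.77, and 0 of the 8 estimates changed sign in any fit (some of these medians include Amn or Vil1, where the filter kept them). The number of members called lower, 3 in the fit reported, was 7 with the replicate block, 6 with DESeq2, 2 with every gene of 1 count or more tested (Dab2 was lost) and 1 at a threshold of 0.01. It was 1 to 3 when 1 culture was left out. For all genes, 793 were higher and 1061 lower. The block gave 2388 and 3037, DESeq2 1201 higher and 1521 lower, a threshold of 0.01 gave 127 and 192, and scaling by library size only gave 508 higher and 1467 lower. Dropping each culture in turn left 109 to 516 genes called higher and 186 to 807 called lower.

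Fits without both cultures sharing a number were chosen after seeing the data. Without the block this gave 0 to 1084 higher genes, 0 to 1290 lower genes, 0 to 6 members lower and medians of -0.96 to -0.83. The 0 came without replicate 1, where 1938 genes and 3 members had an unadjusted edgeR p-value under 0.05. Without replicate 2, whose cultures stand apart, 6 members were lower. With the block, leaving out replicate 1, 2 or 3 gave 1026, 2288 and 2581 higher genes, 1649, 2718 and 3254 lower genes, and 6, 8 and 7 members lower. Vil1, tested only where the filter kept it, was the member added without replicate 2. By CPM without exon length, Lrp2 ranked 4th in CTL in place of 5th. The causes were not tested. For Amn, with 7 to 12 counts a library, depth limits what change can be seen.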
